A study of Mus musculus with 2 samples.

Results

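The genes described here encode the protein components of the cytosolic ribosome. They were taken from the gene table of both libraries by symbol: every gene named Rpl or Rps with a number (and, where present, a paralog letter), together with Rpsa, Rplp0, Rplp1 and Rplp2, leaving out features named as pseudogenes. The rule found 83 of 31053 genes (0.267%), 51 of the large and 32 of the small subunit. The symbol rule did not take in further ribosomal proteins such as Fau, Rpl36al and Rack1, which are given as neighbours. The data are single cell RNA counts (scRNAseq) from mouse eye cups at e13.5, with cornea, lens and optic nerve removed. There were 2 libraries, 1 for each genotype, and each came from 3 pooled samples. Control eyes were Myrf fl/fl and carried the floxed Myrf alleles without cre. Mutant eyes were Rx>cre Myrf fl/fl, in which the Rx>cre transgene, active from the early eye field, deletes Myrf, the gene of a membrane-bound transcription factor, in both the retina and the retinal pigmented epithelium (RPE). With 1 library per genotype, genotype and library cannot be told apart, no test between genotypes was possible, and every interval below is a 95% interval for counting error of UMIs (unique molecules counted) only.

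Ribosomes are built in the nucleolus from ribosomal RNA and the ribosomal proteins, which are needed in near equal numbers, and their mRNAs are among the most abundant in dividing and growing cells. These mRNAs start with a run of C and T bases, the 5′ terminal oligopyrimidine tract, through which their translation follows nutrient and growth signals by way of mTOR and the LARP1 protein. In the embryonic eye, retinal progenitors divide and give rise to neurons that leave the cell cycle, while the RPE forms a single pigmented layer. Several ribosomal proteins have roles outside translation or a known mutant phenotype in the mouse, which are named beside their values.

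The sequences around the transcription start are shown because that tract is the feature that ribosomal protein genes are known for, and because the genes below differ in how they varied among cell types. RefSeq promoter windows (GRCm38.p6) were matched by symbol to 63 of the 83 genes, with 75 start sites. Each line gives 15 bases before and 15 bases from the start, read 5′ to 3′ on the gene's strand. Capitals mark the longest unbroken run of C and T in the window, or the first of equal runs.
Rpl22l1, chr3:28805493-28805522, plus strand: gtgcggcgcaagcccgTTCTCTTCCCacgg
Rpl22, chr4:152324421-152324450, plus strand: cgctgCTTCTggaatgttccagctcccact
Rpl22, other start, chr4:152325711-152325740, plus strand: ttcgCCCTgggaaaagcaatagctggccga
Rps27, chr3:90213634-90213663, minus strand: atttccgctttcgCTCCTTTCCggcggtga
Rps27l, chr9:66946071-66946100, plus strand: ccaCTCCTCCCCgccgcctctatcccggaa
Rps27l, other start, chr9:66946398-66946427, plus strand: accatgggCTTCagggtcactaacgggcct
Rpl12, chr2:32961697-32961726, plus strand: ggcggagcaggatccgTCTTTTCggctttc
Rps24, chr14:24490663-24490692, plus strand: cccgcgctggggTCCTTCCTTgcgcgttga
Rps2, chr17:24720048-24720077, plus strand: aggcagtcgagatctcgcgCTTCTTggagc
Rpl41, chr10:128549154-128549183, minus strand: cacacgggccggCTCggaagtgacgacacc

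Rpl22l1 held a run of 10 pyrimidines that begins just after the annotated start, and Rps27 a run of 9 that spans it. The first start of Rps27l held a run of 9 and the 2 starts of Rpl22 runs of 5 and 4. These marked runs of Rps27l and Rpl22 lie wholly before the annotated starts. The first Rpl22 window also holds an unmarked run of 5 after its start. Within 20 bases either side of the start, 41.3% of the members' 75 windows held a run of 8 or more C or T on the sense strand, against 16% of all 32851 windows, and runs of 10 or more were in 30.7% against 7.39%. The letters CTTTC were found in 25.3% of the members' windows and 5.49% of all windows on the same strand and span, and the longer CTCTTTCC, which contains them, in 4% and 0.174%. The letters CGGAAG, on either strand of the full 300 bases, were in 60% of members' windows and 16.9% of all, while TATAA was in 24% and 24.9% and CACGTG in 10.7% and 7.15%. These matches describe the annotated starts, and a gene without a match here, such as Rpl41 with its longest run of 3, may use a start other than the annotated one.

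The control library held 6039 cell barcodes and 63483835 UMIs, and the mutant library 6754 and 75228861. After filters, 5468 and 6300 cells were kept, with medians of 11332 and 11154 UMIs per cell. The libraries shared 72 barcode sequences, 67 of them among kept cells. Ribosomal protein genes made up 12.9% and 13.4% of UMIs in the 515 and 371 barcodes with over 15% mitochondrial UMIs, which were left out. In RPE-like cells, Myrf had 155 UMIs (74 CPM, counts per 1000000 UMIs) in control and 30 (20.1 CPM) in mutant cells; where the deleted exons lie relative to the counted 3′ end is not given in the sources used here.

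Ribosomal protein genes made up 23.9% of kept control UMIs and 23.0% of kept mutant UMIs, or 25.4% and 26.0% without the red blood cell-like cells, which were 3.80% and 7.75% of kept cells. The share in a single cell had a median of 24.3% in the control, with quartiles of 19.3% and 28.3%, and of 24.9% in the mutant, with quartiles of 20.03% and 28.7%. Of the 83 genes, 80 were found in at least 50% of cells of both libraries and 81 had at least 100 UMIs in each. The set behaved as widely expressed genes in all but 3 of its members.

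The most counted member was Rpl41, a very short protein of the large subunit encoded on chromosome 10 (GRCm38, 128548114 to 128549305), at 7857 CPM in the control and 7068 CPM in the mutant. Rplp0, the base of the ribosomal stalk, followed at 6316 and 6000 CPM, Rps20 at 6093 and 5696 CPM, Rps24 at 5987 and 5711 CPM and Rps2 at 5776 and 5543 CPM. The 10 highest members were the same in both libraries and held 24.2% and 23.8% of the members' UMIs. These are counts of 3′ ends and not levels per length, and reads shared with near-identical processed copies could be lost or moved, so the order between genes is a description of the counts. Rpl13a, with 195 and 202 CPM, and Rpl7l1, with 131 and 119 CPM, were the lowest of the broadly detected members.

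The remaining 3 members are paralogs known mainly from other tissues. Rpl39l, a paralog of Rpl39 known from testis, had 370 UMIs in 163 control cells and 294 UMIs in 161 mutant cells, and 224 and 208 of these UMIs were in cells of the periocular mesenchyme. Rpl3l, the striated muscle paralog of Rpl3, had 1 UMI in the control and 0 in the mutant. Rpl10l, known from male germ cells, had 0 UMIs in both. Their parent genes Rpl39, Rpl3 and Rpl10 were at 3962, 2929 and 1073 CPM in control RPE-like cells.

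Cells were grouped by clustering without the ribosomal protein genes or other translation genes, and clusters were called by marker genes, which left 14 classes of at least 20 cells in each library. Muscle-like cells had the highest share of ribosomal protein UMIs, with 30.4% in the control (25 cells) and 32% in the mutant (29 cells). Retinal progenitor-like cells came next in the control, with 28.6% (28.61 to 28.65, 1605 cells) and 29.1% in the mutant (29.12 to 29.16, 1687 cells). Endothelium-like cells had 27.2% and 29.1%, which in the mutant lay level with the progenitors.

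A middle group of classes lay close together. Macrophage-like cells had 25.2% and 24.2%, periocular mesenchyme-like cells 25.1% and 25.6%, and surface ectoderm-like cells 25.1% and 25.7%, so the order among these 3 was not the same in both libraries. Melanocyte-like cells had 23.4% and 24.5%, Schwann or neural crest-like cells 22.0% and 24.1%, RPE-like cells 21.4% and 23.6%, and neurogenic precursor-like cells 21.1% and 22.3%.

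The retinal neurons had the lowest shares apart from red blood cells. Photoreceptor precursor-like cells had 18.7% and 20.5%, amacrine or horizontal-like cells 16.9% and 17.5%, and retinal ganglion cell-like cells 16.8% (16.76 to 16.85, 328 cells) and 17.8% (17.72 to 17.80, 454 cells). The counting intervals of ganglion cell-like and amacrine or horizontal-like cells overlapped in the control (16.79 to 16.97 in the latter) and not in the mutant. Within a class the cells spread more than the counting intervals: the quartiles of the share per cell were 14.7% and 19.7% in control ganglion cell-like cells and 25.6% and 32.3% in control progenitor-like cells, so these quartile ranges did not overlap. No class changed its rank by more than 3 places between libraries.

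**Figure D1:**
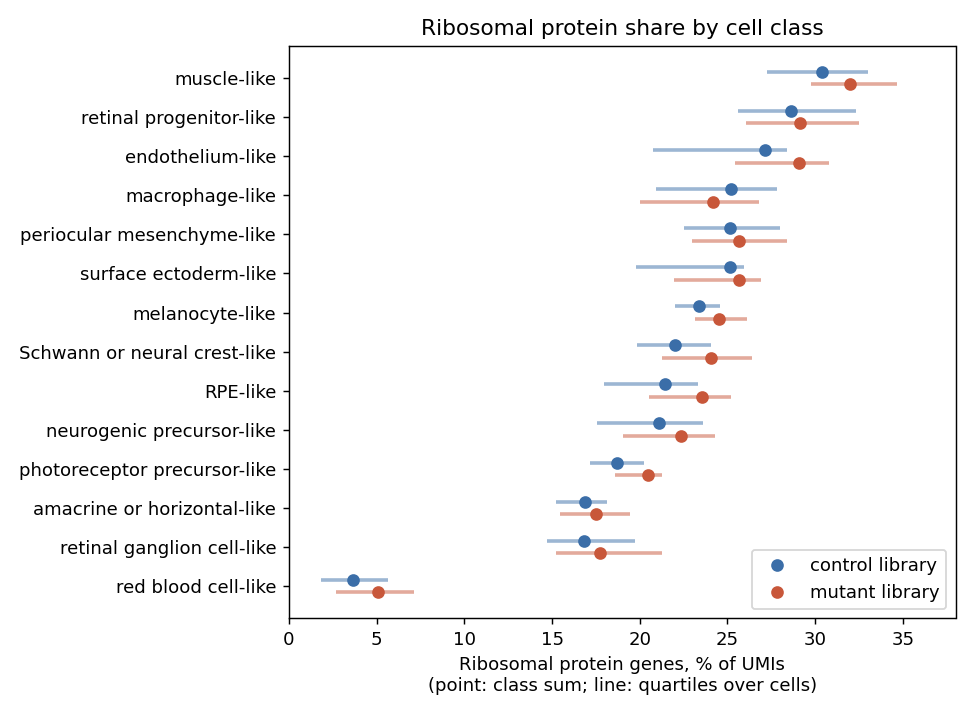
Share of UMIs from the 83 ribosomal protein genes (x axis, percent) in each of the 14 cell classes (y axis), for the control and the mutant library, with points for the share of summed UMIs and bars for the quartiles of the share per cell. Progenitor-like and muscle-like cells sit at the top, retinal neurons lower, and red blood cell-like cells at 3.63% and 5.08%.

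Red blood cell-like cells stood apart, with 3.63% in the control and 5.08% in the mutant. Haemoglobin genes made up 85.2% and 81.8% of their UMIs. When mitochondrial and haemoglobin genes were left out of the total, their share of ribosomal protein UMIs was 25.3% and 28.7%, which placed them at rank 7 and rank 4 of the 14 classes. Their share was therefore low only against a total that counts haemoglobin.

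The balance of the subunits varied little. Genes of the large subunit held between 54.5% and 56.5% of the members' UMIs in all 14 classes of both libraries. No class therefore had its share from a different mix of the subunits.

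Retinal ganglion cell-like cells were then compared with progenitor-like cells. The share of ribosomal protein UMIs was lower in retinal ganglion cell-like than in progenitor-like cells by 0.77 on the log2 scale in the control (-0.77, interval -0.773 to -0.764) and by a log2 ratio of -0.71 in the mutant. Of 80 members with enough UMIs, 80 were lower in both libraries, while 42.4% of all 9387 genes were, and 55 were at least 1.5-fold lower in both, while 19.9% of all genes were. No member was 1.5-fold higher in both, while 19.9% of all genes were. The members' median was -0.73 in the control and -0.67 in the mutant, and that of all genes 0.03 in each. By subunit, 28 of 48 tested members of the large and 27 of 32 of the small subunit were past the fold.

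The size of the difference was not the same for all members. Rpl22l1, a paralog of Rpl22, had the lowest ratio, with 1705 CPM in control progenitor-like cells against 602 CPM in ganglion cell-like cells and 1707 against 609 CPM in the mutant (log2 -1.50 and -1.49). Rpl12 followed with -1.24 and -1.23, Rps2 with -1.22 and -1.12 and Rplp1, a stalk protein, with -1.18 and -1.07. The other stalk proteins Rplp0 and Rplp2 had -1.04 and -0.78 in the control and -0.98 and -0.68 in the mutant. Rpsa, a small subunit protein also known as a laminin receptor, had -1.06 and -0.98. All of these lay below the members' median in both libraries.

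Other members were lower by less. Rpl27 had -0.23 and -0.16, Rpl10 -0.33 and -0.34, Rpl23a -0.37 and -0.22 and Rpl13a -0.38 and -0.39 (Rpl27 and Rpl23a were chosen after their values were seen). Rps6, the protein phosphorylated by S6 kinase, had -0.55 and -0.45. Rpl5 and Rpl11, which bind the 5S RNA and can also bind Mdm2, had -0.57 and -0.60 in the control and -0.53 and -0.57 in the mutant. Rpl5 and Rpl11 thus had similar ratios to each other in both libraries.

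Of members with a known mouse mutant, Rps19 and Rps20 (skin pigmentation) had -1.06 each in the control and -0.99 and -0.98 in the mutant. Rpl24 (belly spot and tail, with retinal defects) had -0.53 and -0.51, and Rpl38 (tail short) -0.54 and -0.48. In CPM, Rpl24 had 3036 in control progenitor-like and 2102 in control ganglion cell-like cells, and Rps19 had 5449 and 2606. The 2 small subunit genes lay below the median of the members and the 2 large subunit genes above it.

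**Figure D2:**
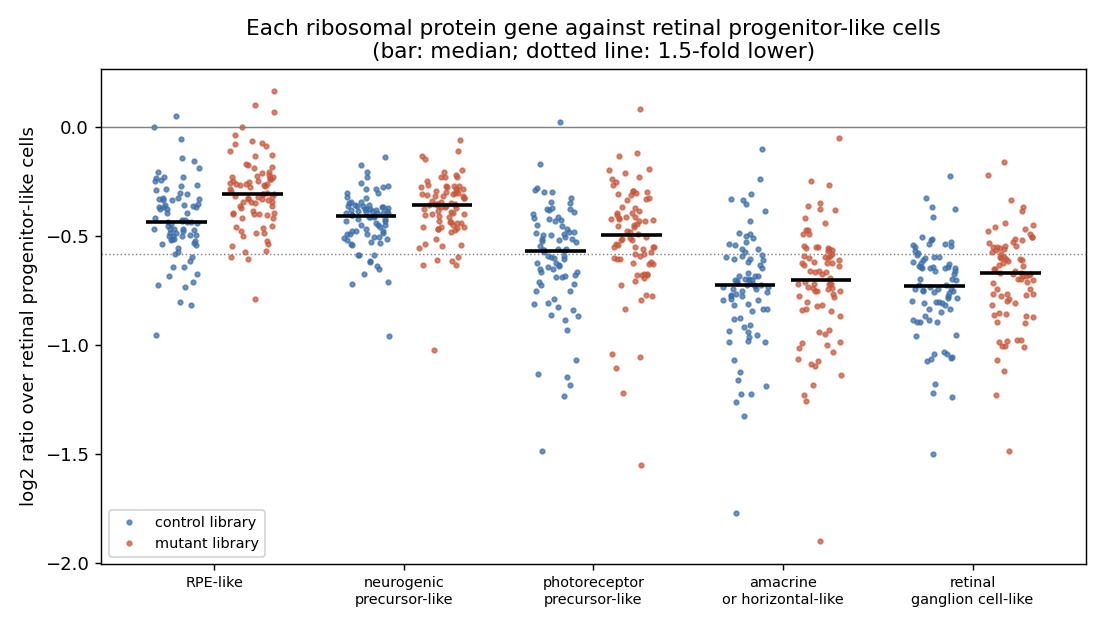
Log2 ratio of each ribosomal protein gene over its level in retinal progenitor-like cells (y axis) in other cell classes of the eye (x axis), with 1 point per member, black bars for medians, a dotted line at 1.5-fold lower, and the control and mutant library side by side. The ganglion cell-like and amacrine or horizontal-like points lie lowest as a group, with Rpl22l1 at the bottom of both.

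The other classes of the optic cup differed from the progenitors in the same direction by different amounts. Neurogenic precursor-like cells, which express Atoh7 and Dll genes and lie between progenitors and neurons, had log2 ratios of the share of -0.44 and -0.38, with 80 of 80 members lower in both libraries, against 39.2% of all genes, and 6 past 1.5-fold, against 10.1%. Amacrine or horizontal-like cells had -0.76 and -0.74, with 80 of 80 members lower against 31.2% of all genes, 57 past the fold against 14.5%, and Rpl22l1 at -1.77 and -1.90. Photoreceptor precursor-like cells had -0.62 and -0.51, with 22 past the fold against 11.8% of all genes and 79 of 80 lower, against 26.6%, the exception being Rpl13a at 0.02 and 0.08. The intermediate class thus lay between the progenitors and the neurons in both libraries.

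RPE-like cells had log2 ratios of -0.42 and -0.31 over progenitor-like cells, with 76 of 80 members lower in both libraries, against 37.6% of all genes. Only 3 members passed the fold, against 12.5% of all genes: Rpsa (-0.95 and -0.79), Rpl12 (-0.82 and -0.61) and Rps12 (-0.80 and -0.58). Rpsa was at 6644 CPM in control progenitor-like and 3430 CPM in control RPE-like cells, and its share of the members' UMIs was lowest in RPE-like cells in both libraries. Melanocyte-like cells, the other pigmented cells of the eye, differed little from RPE-like cells as a set (0.13 and 0.06), and 1 member was past the fold, Rpsa at 0.80 and 0.73, against 11% of all genes. Rpsa was therefore lower in RPE-like cells than in both the progenitor-like and the other pigmented class. Among cells of 500 to 2000 UMIs, the share of the set was 20.1% in control RPE-like and 20.4% in control progenitor-like cells. In the mutant it was 21.4% and 21.5%. Among cells of 16000 to 32000 UMIs it was 22.5% against 27.7% in the control and 24.3% against 28.5% in the mutant. Median depths were 3993 and 4056.5 UMIs in RPE-like and 24321 and 27156 UMIs in melanocyte-like cells. The part of depth was not tested.

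Outside the retina, muscle-like cells had log2 ratios of 0.27 and 0.32 over periocular mesenchyme-like cells as a set. Among the 9 past the fold, against 5.91% of all genes, were Rpl12, Rpl23a, Rpl4, Rpl5, Rps15, Rps2 and Rps25. Rpl39l had 0 UMIs in muscle-like cells of both libraries. Several of these genes fall outside the named-gene rule and were chosen after their values were seen. Red blood cell-like cells were lower than macrophage-like cells for 80 of 80 members past the fold, against 92.7% of all genes, so the members' count was near that of all genes. Rplp0, at -1.22 and -0.77, Rps2 and Rpl41 were lowered least, and Rpl7l1, Rps27l and Rpl22l1 most.

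Depth moved with the share. Progenitor-like cells of 500 to 2000 UMIs had 20.4% and 21.5%, those of 4000 to 8000 UMIs 33.6% and 33.7%, and those of 16000 to 32000 UMIs 27.7% and 28.5%. Ganglion cell-like cells of the same ranges had 16.8% and 17.9%, 23.3% and 24.5%, and 15.9% and 16.5%. In each range the ganglion cell-like cells had the lower share in both libraries, but the gap was smallest in the shallowest cells. With only cells of at most 2000 UMIs, the log2 ratio was -0.28 in the control and -0.26 in the mutant, and 1 member was past the fold in place of 55. The share of all genes past the fold was not computed for these cells. In cells of 8000 to 16000 UMIs the shares were 28.6% against 16.7% in the control and 28.7% against 17.4% in the mutant. The part of depth in the difference was not tested further.

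**Figure D3:**
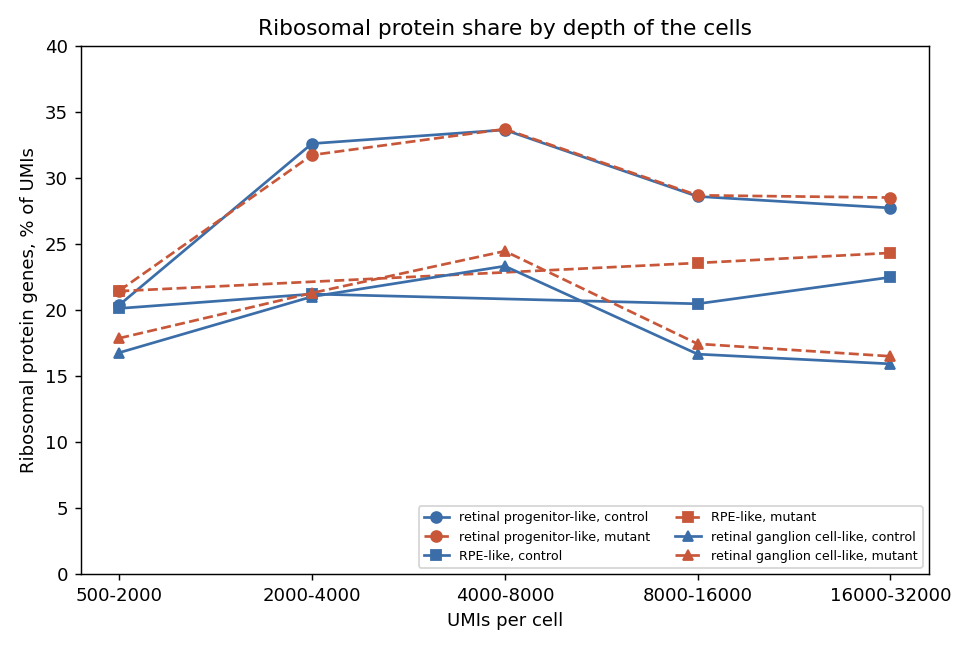
Share of UMIs from ribosomal protein genes (y axis, percent) by bins of UMIs per cell (x axis; bins of under 20 cells are left out and bridged by the line) in retinal progenitor-like, retinal ganglion cell-like and RPE-like cells of both libraries. Progenitor-like cells peak at 33.6% and 33.7% between 4000 and 8000 UMIs, and ganglion cell-like cells lie below them in every bin.

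Within the classes, single clusters also differed. The 4 progenitor-like clusters had 35.4% and 34.2% (cluster 5), 31.9% and 31.6% (cluster 3), 28.7% and 29.5% (cluster 1) and 26.3% and 26.9% (cluster 4). In the same order the G2/M genes had 548 and 539, 4016 and 4453, 891 and 790, and 5405 and 5686 CPM, so the order of the shares was not that of the G2/M level. The median depths were 4052 and 4351, 4842.5 and 4720, 15667 and 13599, and 20545 and 18851 UMIs, with the higher shares in the shallower clusters. The part of depth was not tested. The ganglion cell-like clusters had 19.8% and 22.8% (cluster 10, medians of 1634 and 1809 UMIs) and 16.1% and 16.2% (cluster 17, medians of 17197 and 16091 UMIs). The shallow cluster had the higher share in both libraries. The G2/M genes had 600 and 498 CPM in cluster 10 and 102 and 97.5 CPM in cluster 17.

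Other genes of the translation machinery were read from lists. For ganglion cell-like over progenitor-like cells, 42.4% of all genes were lower in both libraries, and 19.9% were past the fold in each direction. In ganglion cell-like over progenitor-like cells, the other ribosomal proteins were lower in both libraries and none was past the fold, among them Fau (-0.54 and -0.46), Rpl36al (-0.48 and -0.45) and Rack1 (-0.56 and -0.50). Of 48 ribosome biogenesis genes, 38 were lower in both and 16 past the fold, with the nucleolar protein Ncl at -1.03 and -0.95. Of 8 other tested mRNAs with a terminal oligopyrimidine tract, 7 were lower and 3 past the fold, among them Npm1 at -1.02 and -1.05, while Tpt1 had -0.31 and -0.29. The list medians were -0.51 and -0.47, -0.49 and -0.48, and -0.44 and -0.47 in turn, smaller than the members' -0.73 and -0.67.

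The factors that act on the ribosome were more mixed. Of 7 elongation factor genes, 5 were lower and 2 past the fold, with Eef1a1 at -0.45 and -0.39 and Eef2 at -0.06 and -0.02, and Eef1a2, the neuronal form of Eef1a1, had 12 and 35 UMIs in ganglion cell-like cells and 0 in progenitor-like cells of both libraries. Of 33 initiation factor genes, 22 were lower, 10 higher, 1 past the fold downwards and 2 upwards. Of 77 mitochondrial ribosomal protein genes, 45 were lower and 4 past the fold, against 42.4% and 19.9% of all genes, with medians of -0.16 and -0.13. Of 8 MYC family genes, 2 were lower and 5 higher in both libraries, with Mycn at 0.82 and 0.27, Mxd4 at 1.17 and 1.23 and Mxi1 at 0.96 and 1.05. All 17 S phase and all 17 G2/M genes were past the fold downwards. Of 7 tested dissociation stress genes, 5 were higher in both libraries and 4 past the fold (list medians of 0.99 and 1.09), and of 9 tested p53 target genes, 5 were higher and past the fold, with 2 past it downwards (0.82 and 0.65). The part of these lists in the ribosomal protein difference was not tested.

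Over the 14 classes, 10 of 2440 other genes of at least 50 CPM followed the ribosomal protein share most closely. Eef1b2 (Pearson r of 0.990 in the control and 0.987 in the mutant) and Ncl (0.987 and 0.989) came first, and Rack1, Dtymk, Eif3l, Impdh2, Npm1, Nop10 and Nop58 were also among them. Without the red blood cell-like class the highest was Impdh2, which makes guanine nucleotides, with 0.951 and 0.932. The points share a library, a denominator and differences in depth, and red blood cells carry much of the range, so these are descriptions of likeness only.

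The make-up of the set differed from class to class, and by less when red blood cell-like cells were left out. The share of the members' UMIs taken by a single member had a median range over classes of 0.75 in the control and 0.66 in the mutant on the log2 scale, and of 0.41 and 0.40 without red blood cell-like cells. The class with the highest share was the same in both libraries for 57 of 80 members, and that with the lowest for 68. Rps14, Rps24, Rps15a, Rps21 and Rpl32 had the narrowest ranges, from 0.26 to 0.33 by the larger of both libraries. Rps24, for example, took between 2.25% and 2.75% of the members' UMIs in every class of the control.

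By the smaller range of both libraries, Rpl7l1, Rps2, Rpl22l1 and Rps27l were the widest, and Rplp1 and Rpsa were tied next at 1.71 (1.72 and 1.84 in the control). Rps2 took 7.82% and 6.87% of the members' UMIs in red blood cell-like cells and 1.82% and 1.75% in photoreceptor precursor-like cells. Without red blood cell-like cells, the range of Rpl22l1 was still 1.42 and 1.54, from RPE-like to amacrine or horizontal-like cells, while that of Rpl7l1 fell from 2.72 and 2.03 to 0.56 and 0.58.

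Rpl22 and Rpl22l1 encode near-related proteins that bind RNA and regulate each other, and their balance differed between cell types. Rpl22l1 made up 54.2% of the UMIs of the pair in control and 53.8% in mutant RPE-like cells, with 1700 and 1788 CPM against 1435 and 1536 CPM of Rpl22. It made up 51.0% and 46.0% in muscle-like, 50.4% and 47.2% in melanocyte-like, 47.0% and 47.5% in periocular mesenchyme-like and 43.2% and 43.6% in progenitor-like cells. It fell to 30.9% and 30.7% in ganglion cell-like, 26.9% and 24.7% in amacrine or horizontal-like, 26.6% and 23.3% in photoreceptor precursor-like and 17.6% and 19.1% in red blood cell-like cells. Rpl22 itself had log2 ratios of -0.74 and -0.68 in ganglion cell-like over progenitor-like cells, so both genes were lower and Rpl22l1 was lower by more. The order of these classes was nearly the same in both libraries, and the pigmented and mesenchymal cells lay apart from the neurons.

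**Figure D4:**
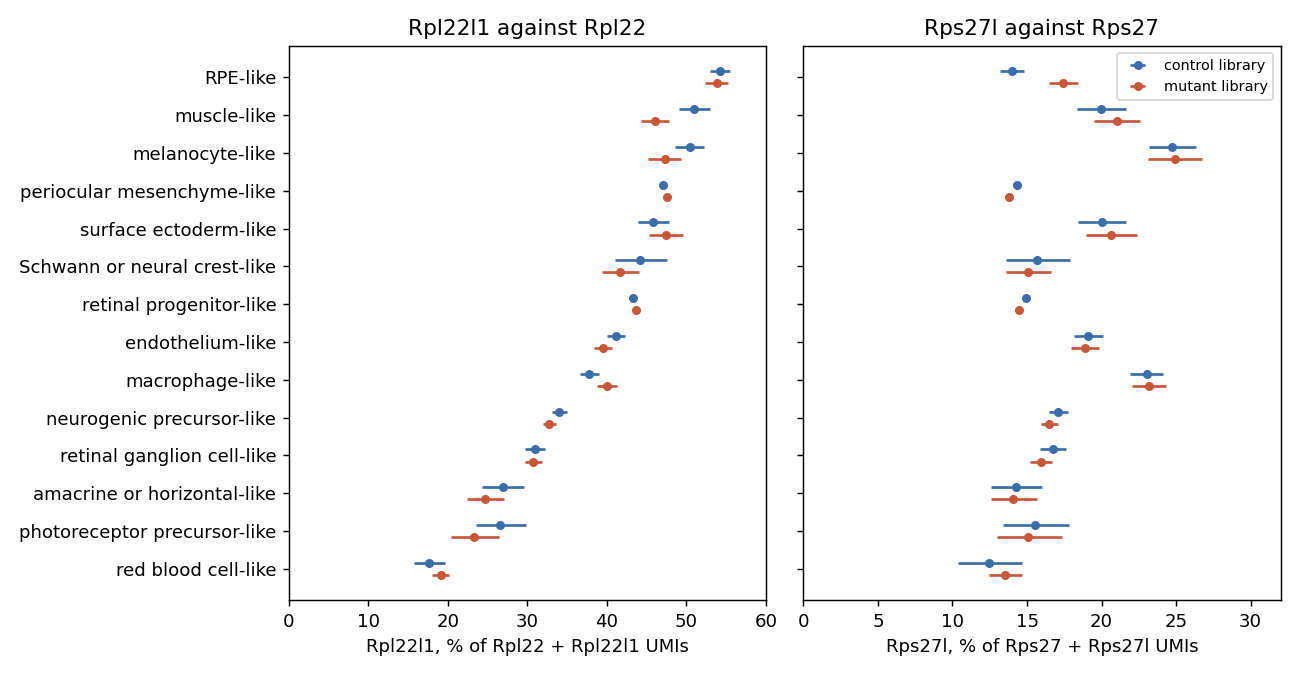
Share of Rpl22l1 in the UMIs of Rpl22 and Rpl22l1, and of Rps27l in those of Rps27 and Rps27l (x axes, percent, with 95% exact binomial intervals), in each cell class (y axis) and library. Rpl22l1 runs from 54.2% in control RPE-like cells to 17.6% in control red blood cell-like cells, and RPE-like cells differ between the libraries for Rps27l, at 14% and 17.4%.

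Rps27l, a paralog of Rps27 known as a target of p53, was highest relative to Rps27 in melanocyte-like cells, with 24.7% and 24.9% of the pair, and in macrophage-like cells, with 23.0% and 23.2%. Progenitor-like cells had 15% and 14.5% and periocular mesenchyme-like cells 14.3% and 13.8%. In RPE-like cells it was 14% in the control and 17.4% in the mutant. Over progenitor-like cells, ganglion cell-like cells had log2 ratios of Rps27l of -0.50 and -0.51.

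Between genotypes, the share of ribosomal protein UMIs in RPE-like cells was 21.4% (21.38 to 21.49) in the 255 control cells and 23.6% (23.51 to 23.64) in the 152 mutant cells, a log2 ratio of 0.14 (0.13 to 0.14). The quartiles of the share per cell were 17.98% and 23.3% in the control and 20.5% and 25.2% in the mutant, and these ranges overlapped. The class is a single cluster called by 8 of 10 pigment epithelium markers (Ttr, Rlbp1 and Tyrp1 among its leading genes), so which mutant cells entered it rests on those genes. Of 80 members, 78 were higher in the mutant, against 47.5% of all 4440 genes. None was 1.5-fold higher or lower, against 2.52% and 4.50% of all genes. The median over members was 0.14, with quartiles of 0.09 and 0.20, and that of all genes -0.01. The set was thus higher by a small amount spread over nearly all members.

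**Figure D5:**
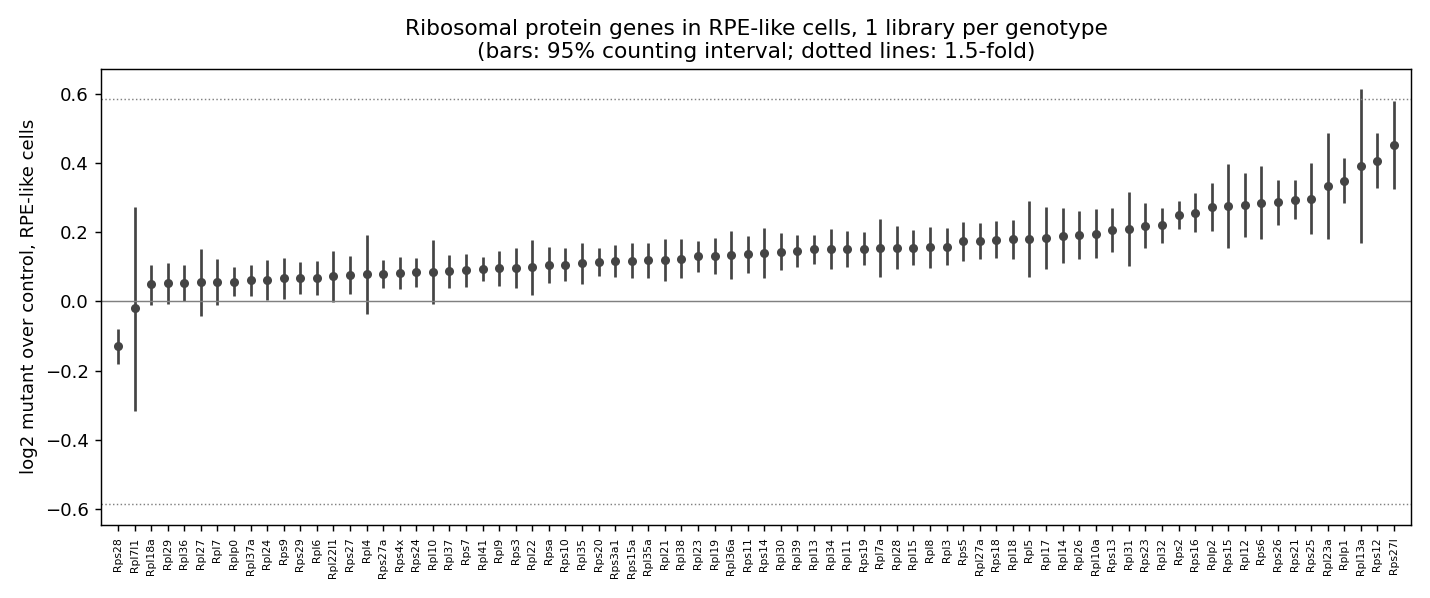
Log2 ratio mutant over control in RPE-like cells (y axis) of each ribosomal protein gene with at least 100 UMIs (x axis, ordered by ratio; 2 genes are not drawn), with 95% counting intervals and dotted lines at 1.5-fold. Rps27l (0.45, or 1.02 in cells of 8000 to 16000 UMIs) is highest, Rps28 (-0.13) is lowest, and no point passes the 1.5-fold line.

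Rps27l had the highest ratio, 0.45 (0.32 to 0.58), from 488 CPM in control to 668 CPM in mutant RPE-like cells. In cells of 8000 to 16000 UMIs the ratio of Rps27l was 1.02 and in cells of at most 2000 UMIs 0.67, and each of these settings had 2 members past 1.5-fold in place of 0. The share of all genes past the fold was not computed at these settings. In red blood cell-like cells Rps27l had a higher ratio than in RPE-like cells, 0.82, from 28.2 to 50.1 CPM (119 and 514 UMIs). That class was shifted as a whole, with a median of 0.42 over all genes and 0.57 over members, against -0.01 and 0.14 in RPE-like cells. In the other 12 classes the ratio of Rps27l ran from -0.05 (periocular mesenchyme-like and macrophage-like) to 0.07 (muscle-like).

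Rps12 (0.41), Rpl13a (0.39) and Rplp1 (0.35) were also among the 5 highest in RPE-like cells. Rplp2 had 0.27 and Rplp0 0.06, so the stalk proteins did not move by the same amount. Rps28 was lower in the mutant, with 3852 and 3521 CPM (-0.13), and Rpl7l1 had -0.02. Rpl36 had 0.05, Rpl24 0.06, Rpsa 0.10, Rpl11 0.15, Rpl5 0.18 and Rps6 0.29. Outside the rule, Fau had 0.02, Rack1 0.21 and Rpl36al 0.22.

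Other values moved with this difference, and their part in it was not tested. Mitochondrial genes made up 5.65% of UMIs in control and 5.06% in mutant RPE-like cells, and 6 of 6 tested genes of the list for low RNA quality (mitochondrial and nuclear RNAs) were lower in the mutant. In cells of at most 5% mitochondrial UMIs the shares were 22.8% (106 cells) and 23.5% (86 cells), a log2 ratio of 0.04. In cells over 5% they were 20.9% (149 cells) and 23.7% (66 cells). All 11 tested S phase genes (5 past the fold), all 15 tested G2/M genes (12 past) and all 6 tested p53 target genes (4 past, a list that includes Rps27l) were higher in the mutant. Of all genes, 47.5% were higher and 2.52% were past the fold upwards. Cdkn1a, the p53 target that stops the cell cycle, had 3 UMIs (1.43 CPM) in the control and 114 (76.3 CPM) in the mutant and was chosen after its value was seen. Of 32 tested ribosome biogenesis genes, 27 were higher and 1 was past the fold, and of 33 initiation factors, 24 were higher.

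Outside the RPE, most classes also had a higher share in the mutant, which was the higher library in 13 of 14 classes. Among the larger classes the log2 ratio was 0.10 in endothelium-like cells (74 of 80 members higher, against 43.0% of all genes), 0.08 in neurogenic precursor-like and in ganglion cell-like cells (72 and 73 of 80, against 46.5% and 46.9%) and 0.03 in progenitor-like cells (58 of 80, against 43.6%). In the 7 clusters of the periocular mesenchyme, which are given by cluster because 2 of them had a marker of another class among their leading genes, it ran from no difference at 2 decimals (cluster 9, 26.1% in both) to 0.09 (cluster 16, 27.0% and 28.7%). Smaller classes had 0.13 (Schwann or neural crest-like and photoreceptor precursor-like), 0.07 (muscle-like and melanocyte-like), 0.05 (amacrine or horizontal-like) and 0.03 (surface ectoderm-like). The RPE-like ratio was the second highest, close to the classes at 0.13.

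Macrophage-like and red blood cell-like cells lay at the ends. In macrophage-like cells the ratio was -0.06, with 16 members higher and 64 lower against 45.3% of all genes higher. In red blood cell-like cells it was 0.48, with 79 of 79 members higher against 82.1% of all genes and 36 past 1.5-fold against 32.8%. These cells also had a lower share of haemoglobin UMIs in the mutant, and the 2 clusters that made up the class held 152 and 56 control and 384 and 104 mutant cells.

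Some members kept a direction relative to the set across all classes. With each member taken relative to the class total of ribosomal protein UMIs, 6 of 79 members were higher in the mutant in 14 of 14 classes, among them Rps21, Rps12, Rps26, Rps25 and Rps16, with median log2 ratios of 0.21, 0.17, 0.11, 0.10 and 0.07. In the other direction, 4 members were lower in 14 of 14 classes: Rpl27, Rpl41, Rpl35 and Rpsa, with medians of -0.17, -0.13, -0.11 and -0.07. Some of these genes fall outside the named-gene rule and were chosen after their values were seen. All classes came from the same pair of libraries, so likeness among classes is not repetition. How many of all genes kept a direction in this way was not computed, so these counts are not read against it.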

How the data were processed

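Raw UMI counts per gene and cell were used as deposited by the authors. The submitters' processing notes name Cell Ranger 7.1.0, mm10 and Seurat 4.1.1. Whether intron reads were counted is not given in the sources used here; such reads, and reads shared with pseudogene copies, would move single members' counts. Cells with under 200 genes, with over 15% mitochondrial UMIs or marked as doublets (51 control and 74 mutant cells, 0.924% and 1.16%) were left out. Scrublet (scanpy 1.11.5) made the doublet calls, with 5% expected. Libraries were integrated and clustered in Seurat 5.3.0 (R 4.3.3; 2000 variable genes, of which 1996 remained after 272 translation genes were barred, 30 components, resolution 0.8), and clusters were named from at least 3 markers.

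Counts were summed per class and library, and shares, CPM and log2 ratios (1 UMI added, genes of at least 100 UMIs over the sums compared) were given with 95% exact counting intervals. A member was called at a 1.5-fold difference. There were no replicates and no test. Intervals cover counting error only. The statistics were checked on simulated counts with counting error only. That check holds no variation between cells or libraries, so it cannot show how the intervals cover such variation. Columns of other series numbered 0.

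Named genes were the paralog pairs, the 5 members with most and with fewest UMIs, the 5 with the widest and narrowest range of composition, the 5 highest and lowest ratios in RPE-like cells, members of known roles, the 10 genes most like the share, and neighbours in function. The members and lists were chosen with earlier results of these data known. Gene coordinates are from GENCODE vM21 (GRCm38) and start windows from RefSeq (GRCm38.p6). The values of some single genes are not reported here. Alternatives covered doublets, depth, mitochondrial limits, denominators, member sets, clustering, fold and minimum counts.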

Additional observations from a re-analysis of the deposited data

Results flagged for a closer look

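In macrophage-like cells, the log2 ratio of the ribosomal protein share, mutant over control, was -0.060, opposite in sign to the 0.14 of RPE-like cells; with 1 library per genotype the difference between the classes was not tested. Among macrophage-like cells of 500 to 2000 UMIs the shares were 21.4% in the control and 22.8% in the mutant, and among those of 16000 to 32000 UMIs they were 24.3% and 22.5%.

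Rps27l had a log2 ratio of 0.45 in RPE-like cells, -0.01 in progenitor-like cells, -0.05 in periocular mesenchyme-like cells and 0.82 in red blood cell-like cells, and this difference between classes was not tested. The median over all genes was 0.42 in red blood cell-like and -0.01 in RPE-like cells.

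Outside the genes described, 9 features named as pseudogenes of members held 0.0110% of control and 0.0105% of mutant UMIs. Cells of clusters that could not be named (744 control and 646 mutant cells, with medians of 767.5 and 779 UMIs) had ribosomal protein shares of 22.2% and 24.3%.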

How the results depend on the processing

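No paired analysis was possible because each genotype had 1 library, and leaving out a library was not possible either. The log2 ratio of the share in RPE-like cells, mutant over control, kept its direction under every alternative. From 0.14 it moved to 0.091 with at most 2000 UMIs per cell, 0.18 with at most 20000, 0.041 at a mitochondrial limit of 5%, 0.13 without mitochondrial and haemoglobin genes and 0.20 in cells of 8000 to 16000 UMIs (an alternative added after seeing the data, like leaving out barcodes found in both libraries). In ganglion cell-like over progenitor-like cells the control value of -0.77 and the mutant value of -0.71 kept their direction. They moved to -0.28 and -0.26 with at most 2000 UMIs, -0.76 and -0.68 with at most 20000, -0.78 and -0.73 with at least 3000, -0.76 and -0.69 with doublets kept, -0.72 and -0.67 as the mean of single cells, -0.76 and -0.71 with the other ribosomal protein genes added, -0.69 and -0.66 without integration, -0.69 and -0.66 at resolution 0.4, and -0.83 and -0.76 at resolution 1.6. The control value was also -0.75 without mitochondrial and haemoglobin genes and -0.78 in cells of 8000 to 16000 UMIs, and the mutant value -0.73 at a mitochondrial limit of 5%. The 55 members past the fold became 1 with at most 2000 UMIs and 7 at a 2-fold threshold. None was higher in both, but 2 were with no minimum of UMIs. These were Rpl3l and Rpl10l, which had 0 UMIs in ganglion cell-like cells of both libraries, so the 1 UMI added sets their ratios. In RPE-like cells the 0 members higher past the fold became 2 with at most 2000 UMIs, 14 at a 1.2-fold threshold and 2 in cells of 8000 to 16000 UMIs. For all these counts at other settings, the share of all genes past the fold was not computed, so they are not read against it. With at most 2000 UMIs the sign turned in ganglion cell-like over progenitor-like cells for Rpl29 (0.055) and Rps28 (0.13) in the control and Rpl36 (0.027) in the mutant. The cause of these changes was not tested. Classes higher in the mutant were 13 of 14 (92.9%), 6 of 7 with at most 2000 UMIs and 7 of 7 in cells of 8000 to 16000 UMIs. Rps27l in RPE-like cells ranged from 0.34 at a mitochondrial limit of 5% to 1.02 in cells of 8000 to 16000 UMIs. Classes of 22 to 30 cells, and members of few UMIs, are the least precise.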

Other observations

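Of the clusters that could not be named, cluster 23 (60 control and 63 mutant cells, medians of 1108 and 1081 UMIs) had ribosomal protein shares of 28.3% and 28.7% with 0.910% and 0.943% mitochondrial UMIs. Features named as ribosomal protein pseudogenes, Rpl13a-ps1 and Rps12-ps3, were among its 10 leading genes by fold. Cluster 0 (668 and 570 cells) had shares of 21.5% and 23.9% with 4.86% (control) and 3.63% (mutant) mitochondrial UMIs.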
